A study of Homo sapiens with 4 samples.

Results

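The genes DDX28, ADO, DNAJC30, ING2, B3GNT2 and EID2 were 6 of the 47251 genes and had 8 of the 180500 transcripts in the deposited tables. They were taken by name, and they had been picked from the measured values because each was near 0 in one group of libraries and expressed in the other. Their difference between the groups is therefore a description here and carries no test. The RNA came from AGS, an established human gastric adenocarcinoma cell line, in which the study asked which genes change when MFAP2, a microfibril protein of the extracellular matrix, is knocked down. Both groups were AGS cells infected with lentivirus and selected with puromycin, so that the control cells also carried a vector. The sh-MFAP2 group (2 libraries) expressed 1 short hairpin RNA against MFAP2 and the control group (2 libraries, sh-control in the labels) a scrambled hairpin, and all cells were grown in DMEM with 10% serum. With 1 hairpin, an effect of the hairpin itself and one of MFAP2 cannot be told apart. Nothing in the labels says that the replicates of a group were separate cultures, so the p-values measure only the spread between these libraries, which may be technical.

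The 6 genes do unrelated work. DDX28 is a mitochondrial DEAD-box RNA helicase needed to assemble the large subunit of the mitochondrial ribosome, and DNAJC30 is a mitochondrial J-domain protein that serves the upkeep of respiratory complex I. ADO is a thiol dioxygenase that oxidizes cysteamine and N-terminal cysteines, marking proteins for the N-degron route of decay when oxygen is present. ING2 is a reader of methylated histone H3 and a subunit of the SIN3 histone deacetylase complex. B3GNT2 is the main transferase that builds poly-N-acetyllactosamine chains on glycoproteins, and EID2 is a small nuclear inhibitor of the acetyltransferase p300. Genes without introns yield mRNA that skips splicing, so their reads cannot be told by splice junctions from reads of genomic DNA.

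The deposited values were not labelled with a unit and were read as FPKM, fragments scaled by transcript length and library depth. MFAP2 itself had no value above 0 in sh-MFAP2 and 0.0116 and 0.0138 FPKM in controls 1 and 2, levels too low to check the labels. Depth was not given and was inferred from the steps between low values at about 54900000 to 75200000 reads per library, although only 65.2% to 66.8% of the low values lay on a step. All 6 epithelial markers reached 1 FPKM, with a summed level of 1780 to 2008 FPKM over the 4 libraries. CLDN4, one of them, was at 47.1 FPKM in sh-MFAP2 replicate 1 and at 0.0151, 0.291 and 0.551 FPKM in sh-MFAP2 replicate 2 and control replicates 1 and 2. Of the fibroblast markers 1 of 6 reached 1 FPKM (COL1A1), with sums of 2.12 to 2.34 FPKM in sh-MFAP2 and 4.39 to 4.96 FPKM in control libraries. Of the leukocyte markers 1 of 5 did (CD68, which tumour cells also express), with sums of 3.17 to 3.22 and 7.23 to 7.89 FPKM, and MS4A1 was at 0 in every library. None of the 4 endothelial markers reached 1 FPKM. The fibroblast and leukocyte sums, each carried by 1 gene, moved with the groups and the epithelial sums did not, and their part in the results was not tested.

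By GENCODE 29 on GRCh38, DDX28 (ENSG00000182810, chr16:68021274-68023442, minus strand), ADO (ENSG00000181915, chr10:62804857-62808483, plus strand), DNAJC30 (ENSG00000176410, chr7:73680969-73683453, minus strand) and EID2 (ENSG00000176396, chr19:39538705-39540333, minus strand) are made of 1 exon. ING2 (ENSG00000168556, chr4:183504994-183511096, plus strand) and B3GNT2 (ENSG00000170340, chr2:62196113-62224731, plus strand) have 2 exons. The single-exon genes have 1 transcript each, of 2169 bases in DDX28, 3627 in ADO and 2485 in DNAJC30. For EID2 the table listed 1981 bases and GENCODE 29 gives 1629.

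By their RefSeq starts, DDX28 and DNAJC30 each lie back to back with another gene. The stretches that both promoter windows share are shown because the partner genes, measured below, did not switch. The RefSeq windows run from 250 bases before to 50 bases after a start on GRCh38.p14. The start of DDX28 lies 52 bases from that of DUS2, and their windows share 151 bases (chr16:68023183-68023333). The starts of DNAJC30 and BUD23 lie 144 bases apart, and their windows share 243 bases (chr7:73683404-73683646). Both are printed 5′ to 3′ on the minus strand, the strand of DDX28 and DNAJC30. Capitals mark the cyclic AMP response element TGACGTCA in the first and ATTGG, the reverse complement of a CCAAT box, in the second.
DDX28 and DUS2: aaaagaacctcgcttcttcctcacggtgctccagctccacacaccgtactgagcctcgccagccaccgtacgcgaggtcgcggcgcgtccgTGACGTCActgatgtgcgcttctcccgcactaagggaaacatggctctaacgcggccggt
DNAJC30 and BUD23: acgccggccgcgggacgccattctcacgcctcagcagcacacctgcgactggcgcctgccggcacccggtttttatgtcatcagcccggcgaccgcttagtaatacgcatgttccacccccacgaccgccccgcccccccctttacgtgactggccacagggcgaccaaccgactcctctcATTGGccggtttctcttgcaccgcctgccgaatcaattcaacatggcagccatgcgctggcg

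Short motifs were searched on both strands of the windows of all 6 genes and of 35116 RefSeq promoter windows. TGACGTCA was found in 1.85% of all windows and, among the 6 genes, in that of DDX28 alone, from 10 bases before its RefSeq start. That start (68023232) lies inside the measured DDX28 transcript, which by GENCODE begins at 68023442 on the minus strand. The match is thus within that transcript and not upstream of it. CCAAT was found in 34.6% of all windows and in those of DDX28, ADO, DNAJC30 and the upstream window of B3GNT2. The GC box GGGCGG was found in 45.0% of all windows, with 5 matches upstream of B3GNT2, 2 each at DNAJC30 and ING2, and 1 at EID2. The TATA box TATAAA (11.5% of windows) and the E-box CACGTG (7.26%) were found at none of the 6. The windows of the 6 genes held 19 to 36 CpG dinucleotides, except for the second window of B3GNT2 with 3, against a median of 14 over all windows. EID2, the one gene low in the sh-MFAP2 libraries, had 30 CpG, as did DNAJC30, and no CCAAT match, as was the case for ING2. A match or its absence describes these letters only.

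DDX28 was at 15.4 FPKM in sh-MFAP2 replicate 1 and 12.9 FPKM in sh-MFAP2 replicate 2, and was listed at 0 in both controls. ADO was at 9.60 and 8.98 FPKM in sh-MFAP2 replicates 1 and 2, with both controls listed at 0. DNAJC30 was at 7.12 and 8.07 FPKM and also listed at 0 in both controls. These 3 single-exon genes were thus expressed at a middling level in one group, and had no value above 0 in the other.

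ING2 reached 7.96 and 7.39 FPKM in sh-MFAP2 replicates 1 and 2, against 0.385 and 0.318 FPKM in controls 1 and 2. B3GNT2 reached 15.6 and 16.2 FPKM there, against 0.178 and 0.403 FPKM in the controls. Neither of these 2-exon genes was listed at 0 in any library. EID2 ran the other way, listed at 0 in both sh-MFAP2 libraries and at 15.8 and 11.5 FPKM in controls 1 and 2. In all 6 genes the groups did not overlap, as the choice of genes required.

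**Figure D1:**
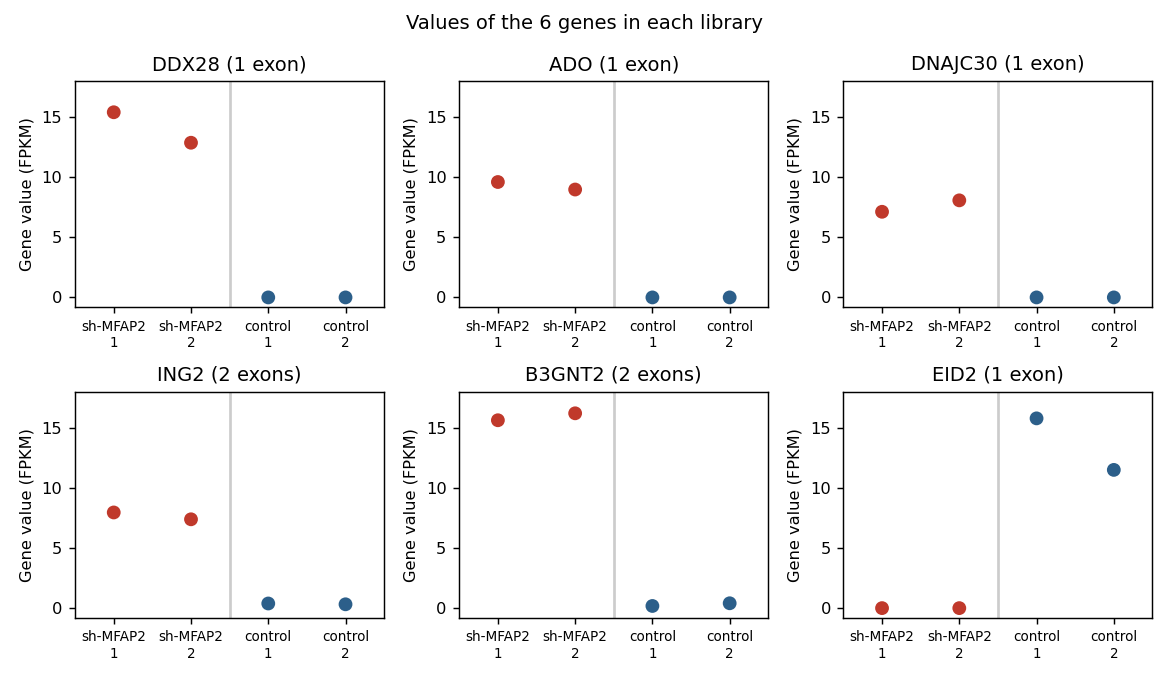
Gene value in FPKM (y axis, linear) of the 6 genes in each of the 4 libraries (x axis), 1 point per library, red for sh-MFAP2 and blue for control. Both points of the expressed group lie close together, from 7.12 to 16.2 FPKM over the 6 genes, and those of the other group lie at 0 to 0.403 FPKM.

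The libraries that expressed a gene differed little from each other. The higher of their values was 1.04 times the lower for B3GNT2, 1.07 times for ADO, 1.08 times for ING2, 1.13 times for DNAJC30, 1.20 times for DDX28 and 1.37 times for EID2. In its expressed libraries the highest value of each gene stood at the 50.8th (ING2) to the 71.4th percentile (B3GNT2) of the highest values of the 9873 genes tested, so that none was among the most abundant. On the inferred scale the expressed values correspond to about 544 to 2741 reads of the main transcript, whereas 3 reads would give these transcripts 0.0110 to 0.0460 FPKM. With no counts deposited, a listed 0 cannot be told apart from a failed estimate. Mitochondrial MT-CYB, used by every cell and named after its values were seen, was also listed at 0 in sh-MFAP2 replicate 1. It was at 4.1e-05 FPKM in control replicate 2, and at 35.9 and 24.6 FPKM in sh-MFAP2 replicate 2 and control replicate 1. How the listed 0 values of DDX28, ADO, DNAJC30 and EID2 arose was not tested. In bulk RNA, fewer cells expressing a gene and less RNA per cell cannot be told apart.

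The transcript table gave more detail for the 2-exon genes. The longer ING2 transcript (ENST00000302327, 1189 bases) reached 9.41 and 8.34 FPKM in sh-MFAP2 replicates 1 and 2, both controls being listed at 0. The shorter one (ENST00000412117, 599 bases) was at 0.261 and 1.04 FPKM in sh-MFAP2 libraries 1 and 2 and at 0.916 and 0.757 FPKM in the controls, so its groups overlapped. The whole ING2 value of the controls thus came from the short transcript, while the long one held 98.6% and 94.1% of the ING2 fragments of sh-MFAP2 replicates 1 and 2. At the level of transcripts, ING2 was therefore listed at 0 in the controls like DDX28, ADO and DNAJC30, beside a second transcript that did not switch.

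B3GNT2 showed no such split. Its transcript of 2763 bases (ENST00000301998) was at 16.2, 16.8, 0.185 and 0.417 FPKM in sh-MFAP2 1, sh-MFAP2 2, control 1 and control 2. The other (ENST00000405767, 2436 bases) was at 0.00446 FPKM or less in every library, so the first held nearly all of the fragments throughout, and its low control values correspond to about 30.3 and 86.7 reads on the inferred scale. The 4 genes of 1 transcript had the same value in both tables.

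Genes were called at p under 0.01 and adjusted p under 0.05 in limma, over genes whose mean reached 1 FPKM. Of the 9873 genes tested, 27 were called (0.273%), of which 15 were higher (0.152%) and 12 lower (0.122%) in sh-MFAP2. All 6 genes were among the 27, 5 as higher and EID2 as lower. Their directions follow from how they were picked. Being called was favoured by that choice without being fixed by it, and is no test of them. With any 1 of the 4 libraries left out, no gene at all was called. No transcript was called of 22312 tested (0%), while 1704 had an unadjusted limma p under 0.05 and 501 one under 0.01, and the smallest adjusted p was 0.0640. The groups did not overlap for 48.9% of all genes tested, and 12.3% had an unadjusted p under 0.05, the shares against which the counts below are read.

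The genes beside the 6 were not used in the choice, although those that overlap one of them may share reads with it. DUS2, a tRNA dihydrouridine synthase, overlaps DDX28 on the opposite strand with 487 shared exonic bases. It was at 4.10, 4.04, 3.73 and 3.83 FPKM in sh-MFAP2 1, sh-MFAP2 2, control 1 and control 2. Its level thus hardly moved where DDX28 went from 15.4 to 0, and the difference in log2(FPKM + 1), sh-MFAP2 minus control as in all differences here, was 0.08 ± 0.10 (SE; limma, adjusted p = 0.717). BUD23, a methyltransferase of ribosomal RNA listed under its older name WBSCR22, overlaps DNAJC30 on the opposite strand with 359 shared exonic bases. It was at 15.4, 17.3, 15.3 and 14.0 FPKM, and its difference was 0.15 ± 0.12 (SE; limma, adjusted p = 0.624).

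Where genes overlap on opposite strands, reads cannot be assigned without strand information, and the strand setting of the counting was not given in the sources used here. Of the 50-base words of the DDX28 transcript 19.5% (414) also occur, on the other strand, in DUS2 transcripts, and 13.2% (322) of those of DNAJC30 occur so in BUD23 or other genes. For ADO the share was 3.07% (110), all in an antisense gene, AC067751.1, with 159 shared exonic bases and 0.0799 to 0.123 FPKM in the 4 libraries. On the same strand no 50-base word of DDX28, ADO, ING2, B3GNT2 or EID2 occurs in a transcript of another gene, and 15 (0.616%) of those of DNAJC30 do. Most of each transcript is thus unique at that length.

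COMMD1, a regulator of copper transport and NF-kB on the left of B3GNT2, was at 9.66, 11.0, 8.88 and 8.96 FPKM (0.19 ± 0.11, SE; limma, adjusted p = 0.538). EID2B, a close relative of EID2 that starts 5850 bases from it, was at 1.96, 2.20, 2.30 and 2.25 FPKM. Its groups did not overlap, but the difference was −0.09 ± 0.11 (SE; limma, adjusted p = 0.723). NFATC3, a calcium-regulated transcription factor to the right of DDX28, was at 3.88, 2.07, 4.08 and 3.77 FPKM with overlapping groups (−0.35 ± 0.26, SE; limma, adjusted p = 0.597), and its difference was −0.68 with sh-MFAP2 replicate 1 left out and −0.01 with replicate 2 left out. CDKN2AIP, a binding partner of the tumour suppressor ARF to the left of ING2, was at 2.03, 9.21, 1.41 and 5.01 FPKM, so its replicates differed more than its groups (0.55 ± 0.80, SE; limma, adjusted p = 0.779). RWDD4, to the right of ING2, was at 12.0, 15.0, 15.5 and 9.58 FPKM (0.13 ± 0.28, SE; limma, adjusted p = 0.852). With 1 library left out, the differences of CDKN2AIP (−0.33 to 1.42) and RWDD4 (−0.19 to 0.45) changed sign, the former turning negative once sh-MFAP2 replicate 2 or control replicate 1 was dropped and the latter without replicate 2 of either group. Leaving out sh-MFAP2 replicate 1 or 2 moved BUD23 to 0.23 or 0.07, COMMD1 to 0.27 or 0.10 and EID2B to −0.03 or −0.15. None of the 7 neighbours tested was called, and in 4 of them the groups did not overlap, near the 48.9% of all genes. The other neighbours, DPEP2NB, EGR2, VPS37D, STX1A, TMEM17 and LGALS13, were at 1.17 FPKM or less in every library and were not tested. MIR5192, a microRNA gene inside B3GNT2, was listed at 0 throughout, and AC067752.1, to the left of ADO, was not matched to a row of the gene table.

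**Figure D2:**
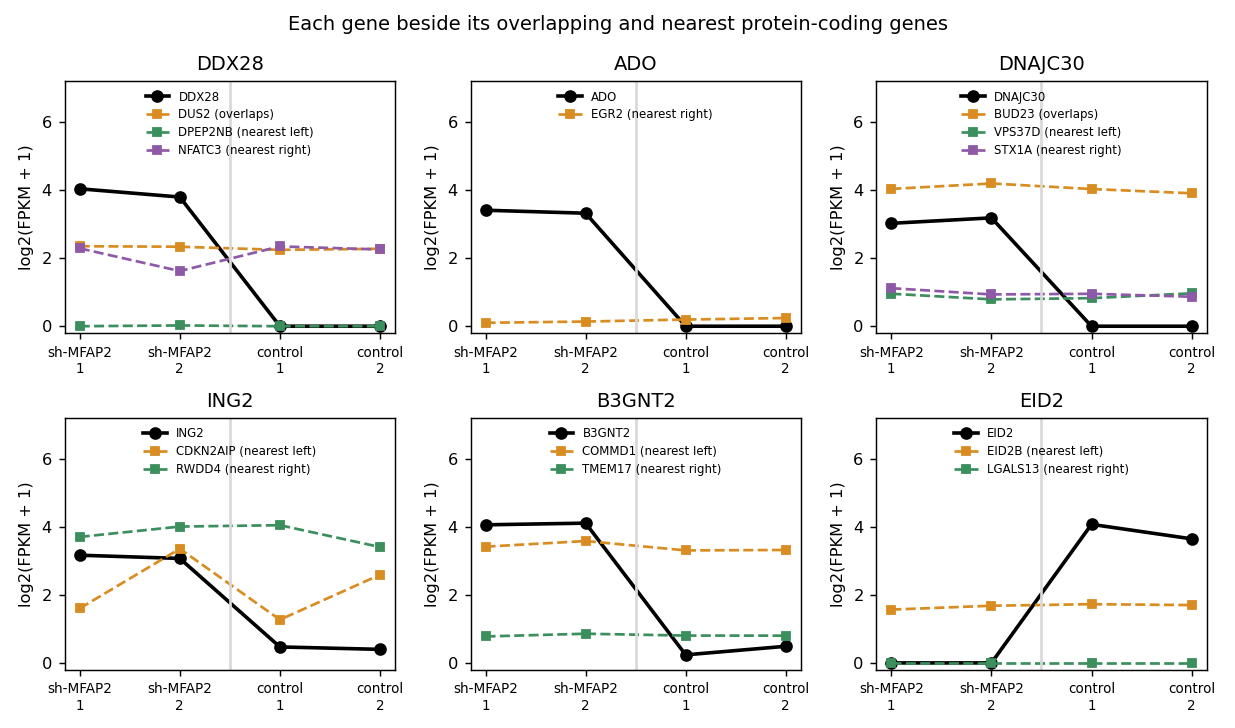
Level as log2(FPKM + 1) (y axis) in the 4 libraries (x axis) of each of the 6 genes (black circles) and of its overlapping and nearest protein-coding genes (coloured squares), lines joining the values of 1 gene. The black lines fall to 0 or near it in one group while DUS2 (3.73 to 4.10 FPKM), BUD23 (14.0 to 17.3 FPKM) and EID2B (1.96 to 2.30 FPKM) stay level.

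The other genes of each function were taken from lists chosen by function, without the 6 genes. For DDX28 the list was 25 assembly factors of the mitochondrial ribosome, all tested. Of these 13 had a higher and 12 a lower mean in sh-MFAP2, none was called, and the median difference was 0.01 on the log2 scale. MRM3, a methyltransferase of mitochondrial ribosomal RNA, was at 6.03, 5.97, 12.0 and 9.87 FPKM, but the difference did not pass the test (−0.76 ± 0.14, SE; limma, adjusted p = 0.302). Among 10 tested genes of thiol oxidation, oxygen sensing and the N-degron route, the company of ADO, 3 had a higher and 7 a lower mean and none was called (median −0.13). EGLN1, the main prolyl hydroxylase that marks HIF for decay, was at 3.31, 2.06, 11.7 and 12.4 FPKM in sh-MFAP2 1, sh-MFAP2 2, control 1 and control 2. Both controls lay far above both sh-MFAP2 libraries, yet the difference of −1.84 ± 0.20 (SE) did not pass (limma, adjusted p = 0.147).

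Of 25 tested relatives of DNAJC30 in the DNAJC family, 12 had a higher and 13 a lower mean (median −0.13). Of 19 genes of the ING family and the SIN3 complex, 5 had a higher and 14 a lower mean (median −0.11). Of 19 genes of N-acetyllactosamine synthesis and binding, 11 had a higher and 8 a lower mean (median 0.06). Of 10 genes around EID2 and p300, 1 had a higher and 9 a lower mean (median −0.24). Both sh-MFAP2 libraries lay below both controls in 7 of the 10 genes around EID2, in 11 of the 25 DNAJC relatives, in 9 of the 19 genes of the ING list and in 4 of the 19 of the N-acetyllactosamine list, against 31.4% of all genes tested. No gene of these 4 lists was called.

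The list medians were small and shifted with single libraries. The N-acetyllactosamine median was 0.15 without control replicate 1 and −0.07 without control replicate 2, so its sign turned. The DNAJC median came to −0.0038 without control replicate 2 and −0.05 without sh-MFAP2 replicate 1, the EID2 and p300 median to −0.15 without sh-MFAP2 replicate 1, and the thiol median to −0.07 without sh-MFAP2 replicate 2. The median of the mitochondrial ribosome list lay between −0.0048 (sh-MFAP2 replicate 2 left out) and 0.06 (control replicate 1 left out). For the ING list it lay between −0.14 and −0.08.

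Together the 6 lists held 108 tested genes, 45 with a higher and 63 with a lower mean, and a median difference of −0.06. Over all 9873 genes tested, 4151 had a higher and 5722 a lower mean, with a median of −0.05. Of the 108 genes none was called by limma, 2 (MRM3 and EGLN1) had an unadjusted p under 0.01, and 10 had one under 0.05 (9.26%, against 12.3% of all genes tested). By the limits given next, 0 of the 108 were near 0 in one library and expressed in another, against 2.06% of all genes tested, so the count is near that share. It depends on the limit of 5 FPKM. B3GNT9 was at 0.381, 3.55, 3.64 and 4.03 FPKM in sh-MFAP2 1, sh-MFAP2 2, control 1 and control 2. It was thus under 10% of its highest value in 1 library, but never reached 5 FPKM.

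**Figure D3:**
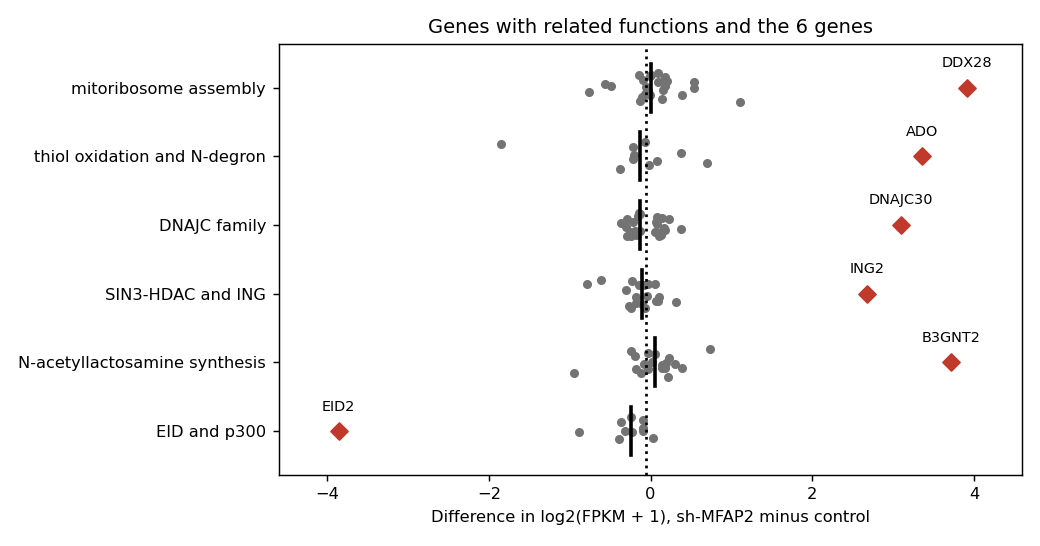
Difference in log2(FPKM + 1), sh-MFAP2 minus control (x axis), of each tested gene of the 6 function lists (grey points), with the list's median (black bar), the median of all genes tested (dotted line, −0.05) and the 6 genes (red diamonds). The grey points lie between −1.84 and 1.11, and the diamonds at 2.68 to 3.91 and, for EID2, at −3.86; these positions were fixed by how the 6 genes were picked.

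To place the 6 genes among others, a gene was called switching when its highest value was 5 FPKM or more and 1 or more of the other libraries were under 10% of that value. Of the 9873 genes tested, 203 switched (2.06%). In 27 (0.273% of those tested, 13.3% of the switching genes) the low libraries were exactly 1 group, with 16 low in both controls and 11 low in both sh-MFAP2 libraries. The 6 genes are 6 of these 27, and 19 of the 27 were called. The other 176 switching genes cut across the groups. Of all 203, 103 were low in a single library, 71 in 2 libraries (44 of these in 1 library of each group) and 29 in 3 libraries. Each library had switching genes at a low value, 82 and 77 genes in sh-MFAP2 replicates 1 and 2, and 72 and 101 genes in control replicates 1 and 2.

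Genes of the other patterns, chosen here after their values were seen, had on and off values much like those of the 6. HNRNPA0, an RNA-binding protein of 1 exon, was at 25.0, 0, 23.5 and 24.8 FPKM in sh-MFAP2 1, sh-MFAP2 2, control 1 and control 2. UTP3, a nucleolar protein of 1 exon, was at 24.3, 22.7, 0 and 24.5 FPKM, and RNF113A, a spliceosome-linked ubiquitin ligase, at 15.9, 15.8, 15.4 and 0 FPKM. TRMT10C, a subunit of mitochondrial RNase P, was at 0, 34.5, 34.8 and 0.00358 FPKM. In HNRNPA0, UTP3 and RNF113A the replicates of 1 group, and in TRMT10C those of both groups, stood apart by the whole range, while the libraries that expressed the gene stood close together.

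**Figure D4:**
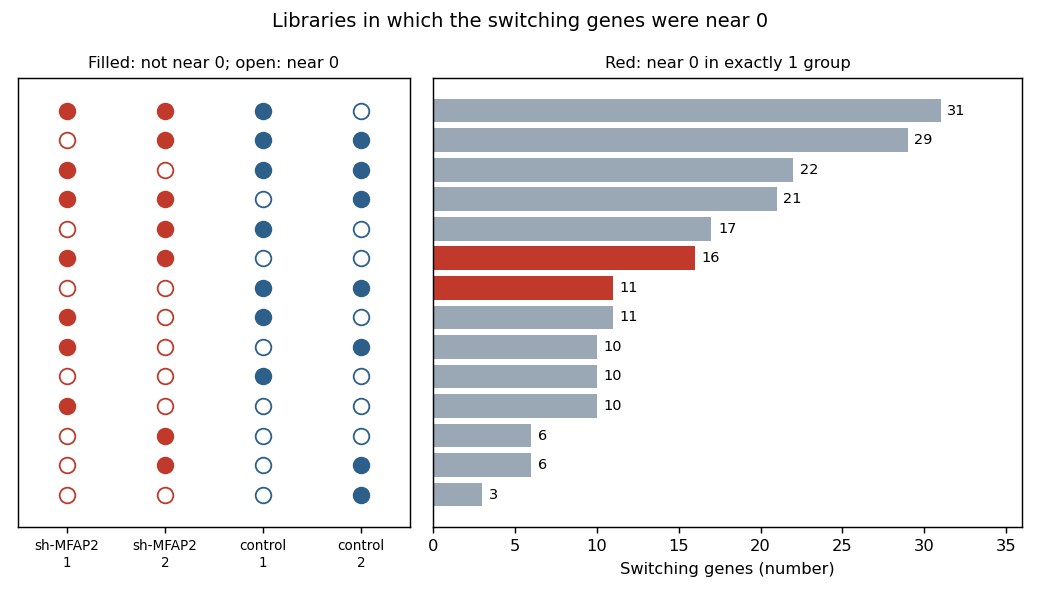
Number of switching genes (bars, x axis of the right panel) for each set of libraries in which they were near 0 (open circles in the left panel, columns are the 4 libraries, red outlines sh-MFAP2 and blue control). The patterns that match the groups (red bars) hold 16 and 11 genes, and the other patterns with 2 low libraries hold 6 to 17. The 4 patterns with 1 low library hold 21 to 31.

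The rule by which the 6 genes were picked had no stated limit. Taking the highest value of the low group as a percentage of the lowest value of the high group, DDX28, ADO, DNAJC30 and EID2 were at 0, B3GNT2 at 2.58% and ING2 at 5.21%. The measure did not set the 6 genes apart. Other genes lay among them, such as LINC00657, RHOB, H2AFJ, EXOC8 and CSNK2A3 at 0, COA3 at 0.720% and C11orf68 at 4.02%. Just beyond ING2 came TMEM223 at 5.70%. Switching in exactly 1 group compares each library with the highest value, so this measure does not set its limit. HIST2H2AA4 (9.23%) and MT-TP (10.7%, and under 10% of its highest value) were inside and IFIT5 (14.4%) was outside. FOXC1, at 0, was outside, since control replicate 2 (6.12 FPKM) was under 10% of control replicate 1 (61.3 FPKM). GNA13 (0.587, 1.03, 16.9 and 2.32 FPKM in sh-MFAP2 1, sh-MFAP2 2, control 1 and control 2) was inside. So was CHRAC1 (1.18, 11.0, 0.886 and 1.09 FPKM), although by this measure the groups of both lay closer than those of IFIT5.

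Exon number is an annotation and no measured value, although the 6 genes had been grouped with it in view, and it went with switching. Of protein-coding genes at 5 FPKM or more in a library, 47 of 64 with 1 exon switched (73.4%), 61 of 154 with 2 exons (39.6%), 25 of 274 with 3 (9.12%), 12 of 406 with 4 (2.96%), 11 of 507 with 5 (2.17%) and 22 of 4925 with 6 or more (0.447%). The share over all 6330 was 2.81%. DDX28, ADO, DNAJC30 and EID2 are thus in a class where most genes switched, and ING2 and B3GNT2 in the next. A value of exactly 0 in a library was listed for 68.8% of the single-exon genes and for 5.19% of those with 2 exons. At the level of genes, the 4 single-exon genes differed from ING2 and B3GNT2 in the same way. All 6 are counted in these shares and had been picked by their values, so the likeness is no test.

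The number of listed transcripts ran alongside, since nearly all single-exon genes have 1 transcript. Of genes with 1 listed transcript 26.0% switched and of those with 6 or more 0.385%. Among genes with 1 transcript, 46 of 63 with a single exon switched (73.0%) and 38 of 260 with more exons (14.6%). The groups were followed by 9 of the 64 single-exon genes (14.1%), and 7 of the 154 genes with 2 exons (4.55%). Exon number, transcript number and estimation by the unnamed program move together here, and their part in the values of the 6 genes was not tested.

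Not every single-exon gene switched. The 17 that did not include JUN, a subunit of AP-1, at 48.6, 56.7, 58.6 and 57.2 FPKM and DOLK, a dolichol kinase, at 14.6, 11.8, 12.2 and 11.2 FPKM, both named after their values were seen. In the 35 switching single-exon genes with 2 or more expressed libraries, the highest expressed value was a median 1.21 times the lowest and at most 6.47 times. For DDX28, ADO, DNAJC30 and EID2, which are among them, it was 1.07 to 1.37 times. Sequence shared with other genes on the same strand was found for 18 of 47 switching and 8 of 17 other single-exon genes.

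**Figure D5:**
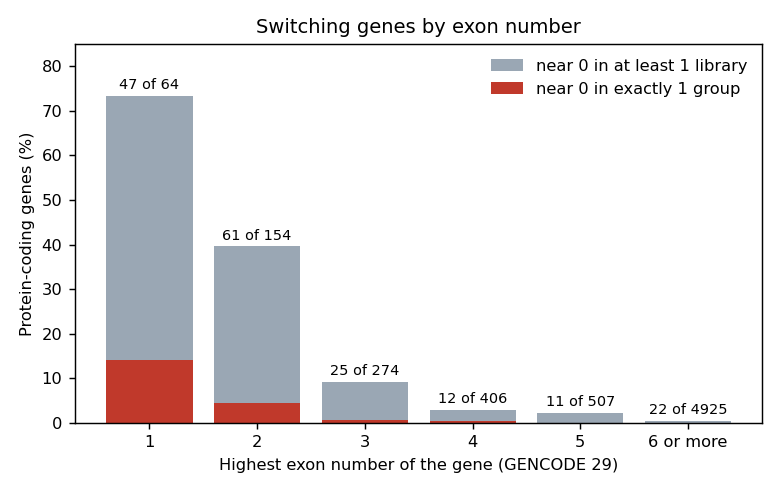
Percentage of protein-coding genes at 5 FPKM or more that were near 0 in at least 1 library (grey bars) or in exactly 1 group (red, drawn over the grey), by the highest exon number of the gene (x axis), with the numbers of switching and of all genes above each bar. The share falls from 73.4% of genes with 1 exon to 0.447% of those with 6 or more.

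The genes whose 4 values lay nearest to each of the 6 were found by Euclidean distance over log2(FPKM + 1) in the 4 libraries, a description of 4 points per gene. DDX28 was nearest to H2AFJ, a histone H2A variant (distance 0.382), then to B3GNT2 (0.626) and ADO (0.789). ADO was nearest to DNAJC30 (0.407), and then to H2AFJ (0.593) and C11orf68 (0.637). DNAJC30 came next to ADO, then C11orf68 (0.491) and ING2 (0.642), and ING2 was nearest to C11orf68 (0.269), DNAJC30 (0.642) and ADO (0.708). B3GNT2 was nearest to TMEM223 (0.517), the noncoding HEIH (0.612) and DDX28 (0.626).

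EID2 had fewer close companions. CSNK2A3, an intronless copy of the casein kinase 2 catalytic subunit, lay at 0.392, the ubiquitin pseudogene UBBP4 at 1.03 and COA3, an assembly factor of cytochrome c oxidase, at 1.41. H2AFJ reached 14.9 and 9.66 FPKM under the shRNA against MFAP2 and was listed at 0 in both controls. CSNK2A3 reached 15.7 and 15.4 FPKM in the controls, with a listed 0 in each sh-MFAP2 library. Of the 50-base words of CSNK2A3, 65.3% also occur in CSNK2A1 on the same strand, so its value is uncertain, whereas EID2 shares none. All of these nearest genes were themselves switching genes low in exactly 1 group.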

How the data were processed

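The 4 RNA-seq libraries of AGS cells, 2 sh-MFAP2 and 2 control, were grouped by their labels. The authors deposited 1 gene table and 1 transcript table, whose unit is not named and was read as FPKM from the values; the aligner and the program that estimated them are not given in the sources used here. The submitters' processing notes name the build hg38. Gene IDs were matched to GENCODE 29 (92.5% found). The 6 genes and all lists were chosen with earlier results of these data known.

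Genes and transcripts with a mean of at least 1 FPKM were compared in limma (lmFit, then eBayes with trend, on log2(FPKM + 1)). The limma version was 3.58.1 under R 4.3.3, and p-values were Benjamini-Hochberg adjusted. Differences in log2(FPKM + 1) understate changes of low genes. An exact permutation test of 2 against 2 libraries cannot go below p = 0.333 and was not used. Named were the 6 genes, their overlapping and nearest protein-coding genes, list genes called, switching or at unadjusted p under 0.01, and the 3 nearest genes by value. Other genes were picked once their values were known. Alternatives were other filters, pseudocounts, scalings and limits, a replicate block, and leaving out each library. Python 3.11.15, pandas 2.3.3 and matplotlib 3.10.9 were used.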

Additional observations from a re-analysis of the deposited data

How the results depend on the processing

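The count of 27 genes called became 6 with no filter beyond a value above 0, 9 when the mean had to reach 5 FPKM and 296 at unadjusted p under 0.01 alone, and it was 0 whichever library was left out (0 to 0), where a lone library is assumed to vary like the others. For transcripts, 1 was called when the mean had to reach 5 FPKM and 5 with a pseudocount of 0.1. With the replicate number as a block, 0 genes were called and 722 had an unadjusted p under 0.05. The labels share only a number between groups, and the differences between replicates 1 and 2 of the groups correlated at −0.0572 across genes. Of the 6 genes, 5 were among the 23 genes called with a pseudocount of 0.1. When the mean had to reach 5 FPKM, 3 of the 6 were left and 1 of these was among the 9 called. With no filter (6 genes called) or with the block, 0 of the 6 were called. These counts only describe the 6 genes and are no test of them, as they were picked for this contrast. No gene of the function lists and no neighbour was called under the other filters, pseudocount, scalings, variance model, block or left-out libraries, while MRM3 and EGLN1 pass an unadjusted p under 0.01 alone. Leaving out 1 library turned CDKN2AIP to −0.33 (sh-MFAP2 replicate 2 left out) and −0.11 (control replicate 1), within −0.33 to 1.42 over the 4 libraries. RWDD4 turned to −0.02 (sh-MFAP2 replicate 2) and −0.19 (control replicate 2), within −0.19 to 0.45. The cause was not tested. The adjusted limma p of EGLN1 ranged from 0.136 to 0.452 and that of MRM3 from 0.203 to 0.737.

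The difference of ING2, 2.68 on the log2 scale, was 2.52 from the sum of its transcripts. Switching genes numbered 327 with near 0 taken as under 20% of the highest value and 114 when expressed meant 10 FPKM, and those low in exactly 1 group 17 at 10 FPKM. Without 1 library the latter numbered 52 to 62, since a single low library then makes a whole group. The share of single-exon genes that switched stayed between 62.3% and 73.8% under all alternatives. With no deposited counts, a listed 0 cannot be told apart from a failed estimate.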
